A study of Mus musculus with 48 samples.

Results

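Lymphocyte trafficking receptors are G protein-coupled receptors that steer lymphocytes between blood, lymphoid compartments and inflamed tissue. The set described here has 9 genes, all of which were found by symbol among the 20007 genes of the count table: S1pr1, S1pr2 and S1pr4, Ccr6, Ccr7, Cxcr3, Cxcr4, Cxcr5 and Gpr183. They were followed in 6 groups, which were 3 sorted spleen populations from each of 2 genotypes. Mice labelled c-RelTG (called transgenic) carried a transgene for the NF-kB subunit c-Rel and were compared with control mice without it. Both genotypes also carried 1 further allele, a Cre allele whose locus is not reported here. All mice had been immunized intraperitoneally with sheep red blood cells, a particulate antigen that drives germinal center (GC) reactions. Naive B cells were sorted as high for IgD and low for IgM. GC B cells were sorted as B220 positive and IgD negative with low CD38, high CD95 and GL7. Plasma cells were sorted as CD138 positive with low B220. Each of 16 mice, 8 per genotype, gave 1 library of 1000 cells of each population, 48 libraries in all. The age of the mice, the time after immunization and the promoter of the transgene were not stated in these sources.

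A resting B cell finds the follicle through CXCR5, whose ligand CXCL13 is made by follicular stroma, and approaches T cells through CCR7 and the oxysterol receptor GPR183 (EBI2). S1PR1 senses sphingosine 1-phosphate (S1P) and drives exit into blood and lymph, whereas S1PR2 couples to G alpha 13 and holds GC B cells in the follicle center. CXCR4 places GC B cells in the dark zone and plasma cells near CXCL12-producing niches, CXCR3 responds to interferon-induced chemokines, CCR6 responds to CCL20, and S1PR4 is a lymphoid S1P receptor.

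Naive B cell libraries held 97993 to 159857 UMIs (unique molecular identifiers, 1 per captured transcript), GC B cell libraries 401207 to 695137 and plasma cell libraries 481229 to 794273. Levels below are CPM, UMI counts scaled to a common total after TMM scaling over all 48 libraries, with the mean ± SD over n = 8 mice or the lowest, median and highest mouse. On that scale 1 UMI was worth 4.73 to 7.53 CPM in a naive B cell library, 1.05 to 1.76 CPM in a GC library and 2.20 to 3.96 CPM in a plasma cell library. Immunoglobulin genes took between 47.9% and 53.9% of plasma cell UMIs and at most 4.74% in a naive B cell library. The scaling mattered for plasma cells: with plain totals the median log2 difference of all genes moved by -1.38 against naive B cells and by -1.45 against GC B cells in control mice, and by -1.23 and -1.32 in transgenic mice. Plasma cell differences below are relative to the typical gene, and the members whose direction turned under plain totals are named beside their values. Rel, the gene of c-Rel, stood at 12.1 ± 4.62 CPM in control and 25.9 ± 6.64 CPM in transgenic GC B cells (log2 1.08, SE 0.22, edgeR adjusted p = 0.00105). In plasma cells 1 UMI of Rel was found in the control and 18 in the transgenic libraries, and in naive B cells 35 and 34 (two-sided exact permutation p = 0.00264 and 0.618). Whether the 3′ tags count the transcript of the transgene is not known from these sources. The summed 8 plasma cell markers had medians of 120536 and 93503 CPM in control and transgenic plasma cells against medians of at most 2598 CPM in the other groups. The 8 measured GC B cell markers, S1pr2 among them, had medians of 1683 and 1576 CPM in GC B cells and at most 204 CPM elsewhere. The 7 naive B cell markers without Ighm, whose transcripts plasma cells also make, summed to at least 4860 CPM in every naive B cell library and at most 939 CPM in any other. In a bulk library, fewer expressing cells and less transcript per cell cannot be told apart.

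**Figure D1:**
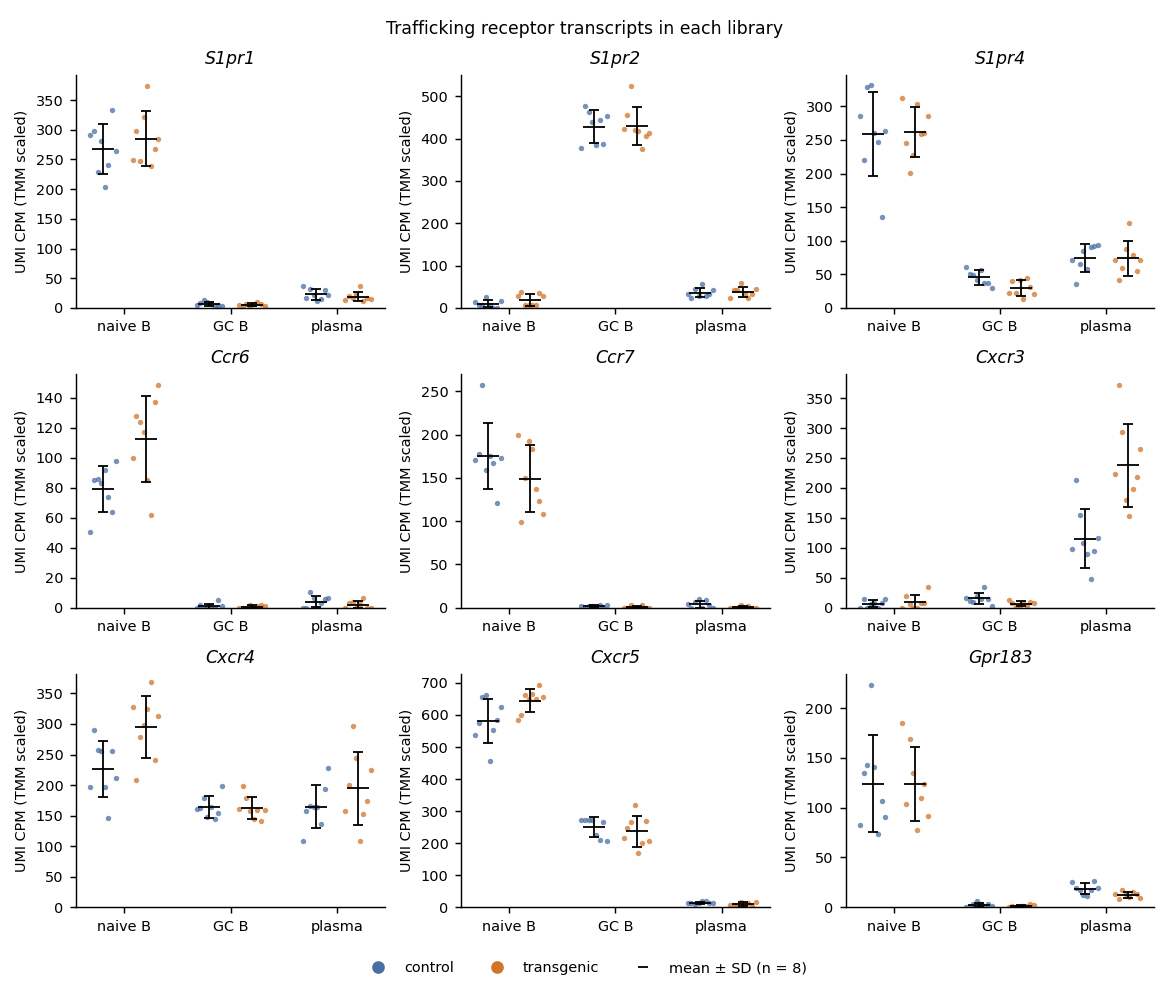
UMI counts as CPM (vertical axes, TMM scaled, from 0) of the 9 receptors in naive B cells, GC B cells and plasma cells, with 1 point per mouse and black bars for the mean ± SD of 8 mice. S1pr2 was highest in GC B cells (428 and 430 CPM), Cxcr3 in plasma cells (115 and 238 CPM), and S1pr1, S1pr4, Ccr6, Ccr7, Cxcr5 and Gpr183 in naive B cells.

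The 3 S1P receptors were arranged differently over the populations. S1pr1 (chromosome 3, 115710433 to 115715072, GRCm38) had 204, 272 and 334 CPM in the lowest, median and highest control naive B cell library. It had 2.40, 5.84 and 13.5 CPM in GC B cells and 11.1, 22.3 and 36 CPM in plasma cells. Neither population overlapped the naive B cells, and GC B cells and plasma cells overlapped slightly. The egress receptor fell by 5.29 on the log2 scale from naive to GC B cells (SE 0.20, edgeR adjusted p = 6.24e-48), and plasma cells stood 1.77 above GC B cells (SE 0.30, edgeR adjusted p = 1.73e-07). In transgenic mice the GC and plasma cell levels were 1.80% and 6.69% of the naive level, against 2.49% and 8.52% in control mice. The step from GC B cells to plasma cells lost its call with plain totals in control mice (log2 0.35, adjusted p = 0.271) and transgenic mice (0.54, adjusted p = 0.0919), and in control mice after thinning all libraries to the smallest total (0.54, adjusted p = 0.522).

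S1pr2 (chromosome 9, 20962361 to 20976781), the confinement receptor, ran the other way. Control GC B cells had 378, 441 and 477 CPM in the lowest, median and highest library, while naive B cells had 0, 7.11 and 25.5 CPM from 11 UMIs in all. The log2 difference was 5.45 in control mice (SE 0.21, edgeR adjusted p = 4.46e-47) and 4.36 in transgenic mice (SE 0.18, edgeR adjusted p = 2.05e-39), with no overlap in either. Plasma cells kept a low level of 23.7, 32.6 and 55.6 CPM, which fell by 3.51 on the log2 scale relative to GC B cells (SE 0.13, edgeR adjusted p = 1.54e-50). Against naive B cells S1pr2 was higher in plasma cells by log2 1.93 in control mice (SE 0.35, edgeR adjusted p = 1.60e-06) and 0.84 in transgenic mice (SE 0.29, edgeR adjusted p = 0.0107). With plain totals the plasma cell difference was 0.56 in control mice (adjusted p = 0.204) and -0.39 in transgenic mice (adjusted p = 0.246). Without transgenic mouse 8 the transgenic difference of 0.62 did not pass (edgeR adjusted p = 0.0827).

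S1pr4 (chromosome 10, 81497747 to 81500132) was the S1P receptor with the smallest range. Control libraries had 135, 262 and 332 CPM in naive B cells, 30.0, 44.9 and 61.5 CPM in GC B cells and 35.6, 78.5 and 93.1 CPM in plasma cells. GC B cells did not overlap naive B cells, and the log2 difference was -2.53 (SE 0.15, edgeR adjusted p = 8.77e-29). From GC B cells to plasma cells S1pr4 was higher by log2 0.78 in control mice (SE 0.16, edgeR adjusted p = 1.96e-05), but with plain totals it was lower (log2 -0.68, adjusted p = 6.80e-05), and after thinning it did not pass (0.43, adjusted p = 0.300). In transgenic mice the same difference was 1.36 (SE 0.19, edgeR adjusted p = 2.07e-08) and 0.03 with plain totals (adjusted p = 0.884).

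The follicle and T zone receptors were naive B cell genes to different degrees. Cxcr5 (chromosome 9, 44511787 to 44561877) had 457, 578 and 663 CPM in control naive B cells, 207, 269 and 274 CPM in GC B cells and 10.3, 12.7 and 19.9 CPM in plasma cells, with no overlap between any 2 populations. It fell by 1.22 on the log2 scale from naive to GC B cells (SE 0.09, edgeR adjusted p = 4.31e-24) and the difference from GC B cells to plasma cells was log2 -4.05 (SE 0.16, edgeR adjusted p = 3.18e-48). In transgenic mice these differences were -1.48 and -4.50 (edgeR adjusted p = 1.17e-25 and 5.63e-42).

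Ccr7 (chromosome 11, 99144196 to 99155077) was nearly confined to naive B cells among the populations sorted. Control naive B cells had 121, 172 and 257 CPM, whereas the 8 GC B cell libraries held 7 UMIs in all and the 8 plasma cell libraries 10. The GC B cell level was 0.769% of the naive level, and the log2 difference was -6.67 (SE 0.29, edgeR adjusted p = 6.64e-42). In transgenic plasma cells 2 UMIs were left, and naive B cells had 211 times that level by summed UMIs (95% exact Clopper-Pearson counting interval 57.6 to 1755). GC B cells and plasma cells could not be ordered for this gene (log2 1.37, edgeR adjusted p = 0.0507 in control mice, and 0.07, adjusted p = 0.953 in transgenic mice, where plain totals gave -0.83). The control difference passed without mouse 9 or mouse 12 (adjusted p = 0.0459 and 0.0211).

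Gpr183 (chromosome 14, 121952551 to 121965195), which guides B cells to the outer follicle, had 73.4, 121 and 223 CPM in control naive B cells. It had 0, 2.46 and 6.07 CPM in GC B cells and 11.1, 18.2 and 26.8 CPM in plasma cells. The 3 populations did not overlap on the TMM scale. With plain totals GC B cells and plasma cells overlapped (4 of 473729 UMIs in GC B cells of mouse 4, and 4 of 652717 in plasma cells of mouse 9). The difference from naive to GC B cells was log2 -5.43 (SE 0.30, edgeR adjusted p = 6.49e-34), and plasma cells stood above GC B cells by 2.73 (SE 0.40, edgeR adjusted p = 1.96e-09). In transgenic mice these differences were -6.31 and 3.01 (edgeR adjusted p = 1.01e-35 and 3.25e-09). Ccr6 (chromosome 17, 8236043 to 8257141) had 50.7, 84.0 and 97.9 CPM in control naive B cells, and 5 UMIs in all GC B cell and 10 UMIs in all plasma cell libraries. It fell by 5.89 on the log2 scale into GC B cells (SE 0.39, edgeR adjusted p = 2.15e-27) and by 4.15 into plasma cells (SE 0.37, edgeR adjusted p = 4.91e-19). Plasma cells passed the test above GC B cells in control mice (log2 1.74, edgeR adjusted p = 0.0194). On these few UMIs that call was lost without control mouse 3 (adjusted p = 0.123), without control mouse 4 (adjusted p = 0.0713) and with plain totals (log2 0.50, adjusted p = 0.480).

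Cxcr4 (chromosome 1, 128588199 to 128592293) had the flattest profile of the 9. Control libraries had 147, 233 and 291 CPM in naive B cells, 144, 162 and 199 CPM in GC B cells and 108, 164 and 228 CPM in plasma cells, and all 3 ranges overlapped. It fell by 0.46 on the log2 scale into GC B cells (SE 0.12, edgeR adjusted p = 7.01e-04) and by 0.42 into plasma cells (SE 0.13, edgeR adjusted p = 0.00369). Without a filter on low counts the GC difference was -0.27 and did not pass (edgeR adjusted p = 0.0760). In transgenic mice the differences were -0.87 and -0.63 (edgeR adjusted p = 9.20e-08 and 9.86e-05). Plasma cells did not pass the test against GC B cells in control mice (log2 0.04, 95% interval -0.17 to 0.26) or in transgenic mice (log2 0.25, edgeR adjusted p = 0.0649). The second passed with the mouse as a block (0.23, adjusted p = 0.0472) and without transgenic mouse 6, 13 or 14 (adjusted p = 0.0349, 0.00686 and 0.0376), and with plain totals both turned to falls (log2 -1.42 and -1.09).

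Cxcr3 (chromosome X, 101731535 to 101734269) had its highest level in the plasma cell libraries. Control plasma cells had 48.3, 102 and 214 CPM in the lowest, median and highest library, GC B cells 2.40, 14.5 and 34.2 CPM, and naive B cells 0, 6.70 and 15.1 CPM from 7 UMIs in all. On the TMM scale plasma cells overlapped neither other population. They stood above naive B cells by log2 4.17 (SE 0.57, edgeR adjusted p = 1.11e-06) and above GC B cells by 2.92 (SE 0.31, edgeR adjusted p = 8.77e-09), and in transgenic mice by 4.49 and 5.10 (edgeR adjusted p = 1.20e-10 and 1.48e-15). These increases remained with plain totals, at 1.47 and 3.79 against GC B cells. Control mouse 10 went the other way with plain totals (20 of 414133 UMIs in GC B cells and 17 of 692336 in plasma cells). The control ranges of these 2 populations therefore overlapped without TMM scaling. T cell markers, given below, were also higher in plasma cell libraries than in the others, and their part in these increases was not tested. GC against naive B cells did not pass the test (log2 1.25, edgeR adjusted p = 0.220 in control mice, and -0.61, 95% interval -2.08 to 0.86, in transgenic mice), although without a filter the control difference of 1.43 passed (edgeR adjusted p = 0.0177).

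Counted together, GC B cells against naive B cells of control mice had 1 of 9 members higher and 7 lower, where 26.6% and 24.7% of all genes tested were higher and lower. Plasma cells against naive B cells had 2 higher and 7 lower (27.1% and 25.4% of all genes), and plasma cells against GC B cells had 5 higher and 2 lower (30.4% and 35.4%). In transgenic mice the counts were 1 and 7 (27.5% and 26.5%), 2 and 7 (28% and 26.9%), and 4 and 2 (31.2% and 37.6%). Below the filter within GC B cells were S1pr1, Ccr6, Ccr7, Cxcr3 and Gpr183. Within plasma cells they were S1pr1, Ccr6, Ccr7, Cxcr5 and Gpr183, and within naive B cells S1pr2 and Cxcr3. Such members entered these fits through the populations where they were high, so that their direction there was largely set by the filter. The counts are a description and not a test of the set. The counts of plasma against GC B cells depended on the scaling. Of the 5 higher in control mice, S1pr1 and Ccr6 lost their call with plain totals and S1pr4 was called lower. Of the 4 higher in transgenic mice, S1pr1 and S1pr4 lost their call. After thinning, 3 members were called in either direction in control mice. The median log2 difference of the members was -2.53, -2.71 and 1.37 in control mice, beside 0.00, 0.01 and -0.09 over all genes tested. In transgenic mice it was -3.18, -3.29 and 1.34, beside -0.01, 0.00 and -0.11. The medians of 1.37 and 1.34 for plasma against GC B cells were each the value of 1 member with few UMIs. These were Ccr7 in control mice (10 against 7 UMIs) and Ccr6 in transgenic mice (6 against 4 UMIs). Neither passed the test, and both were below the filter within GC B cells and within plasma cells, so these 2 medians do not describe the set. Among the calls of plasma cells against naive B cells, 51.6% were higher in control and 51.1% in transgenic mice, and with plain totals 8.57% and 10.3%. Against GC B cells these shares were 46.2% and 45.3%, and with plain totals 10.4% and 11.7%. Since naive, GC and plasma cells of a mouse enter 2 comparisons each, the 3 comparisons of a genotype share libraries.

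**Figure D2:**
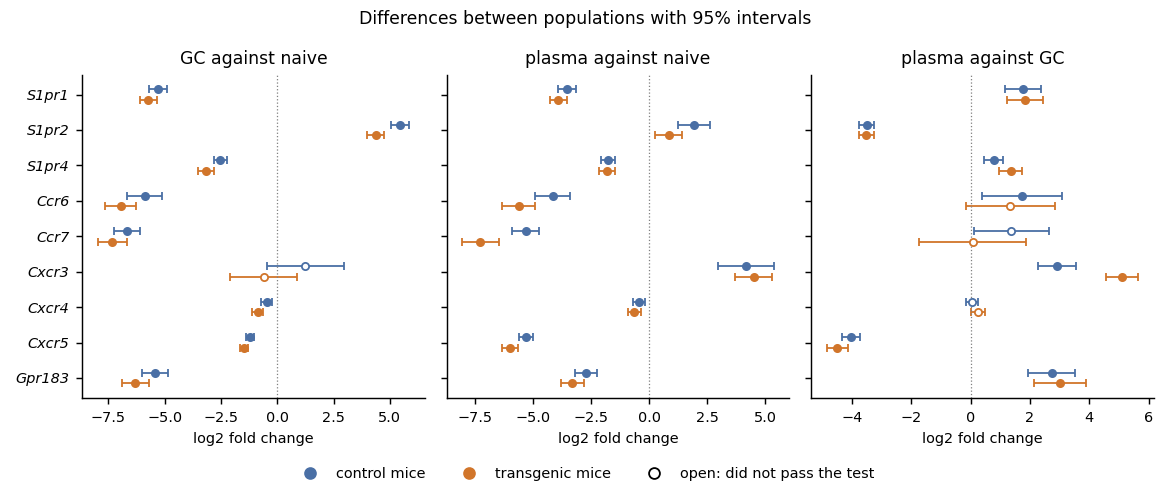
Log2 fold changes (horizontal axes) of the 9 receptors between populations, in control (blue) and transgenic (orange) mice, with 95% intervals from edgeR with TMM scaling; open symbols did not pass an adjusted p of 0.05. From naive to GC B cells 7 receptors fell and S1pr2 rose; the plasma cell panels shift to the left with plain totals, where Cxcr4 against GC B cells turned to a fall in both genotypes, S1pr4 in control mice and Ccr7 in transgenic mice, and S1pr2 against naive B cells changed sign in transgenic mice.

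**Figure D3:**
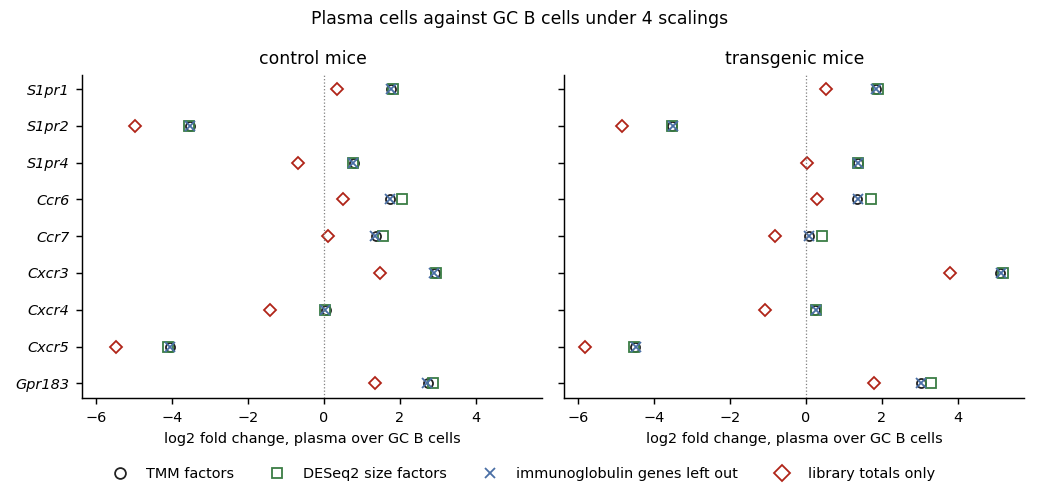
Log2 fold changes of plasma cells over GC B cells (horizontal axes) for the 9 receptors in control and transgenic mice under 4 scalings. TMM factors, DESeq2 size factors and leaving out immunoglobulin genes lie close together, and plain library totals shift every receptor to the left; S1pr2 and Cxcr5 were lower and Cxcr3 and Gpr183 higher under all 4.

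The genotype comparison asked whether the c-Rel transgene went with other receptor levels inside each population. In naive B cells 0 of 7 members tested passed, where 1.13% of all genes tested did (24 of 2131), and 2 members, S1pr2 and Cxcr3, were below the filter on low counts. At an unadjusted p under 0.05, Ccr6 and Cxcr4 had higher values in transgenic mice; DESeq2 called no member either. Ccr6 had 78.9 ± 15.4 CPM in control and 112 ± 28.8 CPM in transgenic mice (log2 0.52, SE 0.20, edgeR adjusted p = 0.242), and the ranges of 50.7 to 97.9 and 61.5 to 148 CPM overlapped. Cxcr4 had 226 ± 46.4 and 295 ± 51.5 CPM (log2 0.35, SE 0.13, edgeR adjusted p = 0.174). The log2 intervals of the other members tested were -0.16 to 0.32 for S1pr1, -0.26 to 0.24 for S1pr4, -0.58 to 0.04 for Ccr7, -0.03 to 0.29 for Cxcr5 and -0.40 to 0.33 for Gpr183. S1pr2 had 11 UMIs in control and 26 in transgenic naive B cells, and without a filter its difference of log2 1.03 had an edgeR adjusted p of 0.659, where 0.19% of all genes passed.

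In GC B cells S1pr4 fell, and 1 of 4 members tested passed where 7.68% of all genes tested did. Control libraries had 30.0, 44.9 and 61.5 CPM in the lowest, median and highest mouse and transgenic libraries 13.7, 26.5 and 45.2 CPM. The ranges overlapped widely, and 4 of 8 transgenic mice were below the lowest control. The difference was log2 -0.63 (SE 0.20, 95% interval -1.03 to -0.23, edgeR adjusted p = 0.0399; 226 against 179 UMIs). It was near the threshold, was kept only without control mouse 12 or transgenic mouse 6, 8 or 14 of 16 fits that left out 1 mouse (adjusted p between 0.0111 and 0.0887), and was not called by DESeq2 (adjusted p = 0.0613) or with all 48 libraries in 1 fit (adjusted p = 0.0576). The means were 50.3 and 31.6 CPM in mice 1 to 8 and 40.2 and 27.3 CPM in mice 9 to 16; whether these runs of mouse numbers mark batches is not known. The 7 naive B cell markers without Ighm summed to between 568 and 939 CPM in control and between 282 and 781 CPM in transgenic GC B cells, with all 7 detected in both. Their part in the fall of S1pr4 was not tested.

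The promoter windows of S1pr4 and Cxcr3, the 2 members that passed a genotype test, are printed from RefSeq (GRCm38.p6), 250 bases before to 50 after the RefSeq start, 5′ to 3′ on the minus strand. Capitals mark the only match to a motif searched.
S1pr4, chr10:81500088-81500387: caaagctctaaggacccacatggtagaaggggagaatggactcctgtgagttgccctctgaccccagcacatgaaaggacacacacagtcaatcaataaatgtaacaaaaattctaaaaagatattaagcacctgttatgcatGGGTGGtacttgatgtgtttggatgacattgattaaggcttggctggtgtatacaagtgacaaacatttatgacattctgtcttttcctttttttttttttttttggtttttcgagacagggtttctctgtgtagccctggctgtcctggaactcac
Cxcr3, chrX:101734098-101734397: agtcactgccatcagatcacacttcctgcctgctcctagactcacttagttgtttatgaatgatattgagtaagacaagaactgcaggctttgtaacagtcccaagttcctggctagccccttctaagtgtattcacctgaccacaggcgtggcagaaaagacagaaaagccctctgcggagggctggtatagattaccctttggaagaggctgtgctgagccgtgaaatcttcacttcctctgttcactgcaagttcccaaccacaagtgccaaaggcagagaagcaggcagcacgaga
Windows were found for 6 of the 9 members (7 windows, 2 of them for Ccr6, and none for S1pr1, Ccr7 and Cxcr5). They were searched on both strands for 4 motifs. These were an NF-kB core GGNNTTTCC (in 5.82% of all 32851 windows), a KLF core CCACCC (31.5%), a T-box core AGGTGT (13.7%) and a FOXO core GTAAACA (3.65%). The single match was the KLF letters on the opposite strand of S1pr4, at -107 from the start. A match is a description of letters, and no match says only that these letters are not in this window.

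Of the other members tested in GC B cells, S1pr2 had 428 ± 38.9 and 430 ± 44.3 CPM (log2 interval -0.15 to 0.12), Cxcr4 164 ± 17.9 and 163 ± 18.3 CPM (interval -0.20 to 0.13) and Cxcr5 249.6 ± 30.4 and 237 ± 47.9 CPM (interval -0.33 to 0.13). The summed light zone markers had medians of 975 and 1181 CPM in control and transgenic GC B cells, and the dark zone markers, which include Cxcr4, 1393 and 1414 CPM. The light zone sum was not particular to GC B cells. Its medians in control and transgenic mice were 1439 and 1725 CPM in naive B cells and 1031 and 613 CPM in plasma cells. The 5 members below the filter in GC B cells were S1pr1, Ccr6, Ccr7, Cxcr3 and Gpr183. Of these Cxcr3 had the most UMIs (75 against 41). Its control libraries had 2.40, 14.5 and 34.2 CPM and its transgenic libraries 1.48, 7.45 and 13.3 CPM, with overlapping ranges. Without a filter the difference was log2 -1.13 (SE 0.29, edgeR adjusted p = 0.00796, where 2.99% of all genes passed), and over mice the two-sided exact permutation p was 0.0140, unadjusted and 1 of 11 such tests of members below the filter. DESeq2 (adjusted p = 0.0510) and the fit of all 48 libraries (adjusted p = 0.147) did not call it.

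In plasma cells Cxcr3 rose, and 1 of 4 members tested passed where 6.35% of all genes tested did. Control libraries had 48.3, 102 and 214 CPM in the lowest, median and highest mouse, and transgenic libraries 153, 220.1 and 371 CPM. In all, 6 of 8 control mice were below the lowest transgenic mouse, and mice 2 and 3 were inside the transgenic range. The means were 115 ± 49.6 and 238 ± 70.0 CPM (277 against 681 UMIs), a log2 difference of 1.06 (SE 0.25, 95% interval 0.52 to 1.59, edgeR adjusted p = 0.0191). The call was kept in 16 of 16 fits that left out 1 mouse, with log2 values between 0.94 and 1.23. It was lost in mice 1 to 8 alone, where the means were 143 and 267 CPM (log2 0.90, adjusted p = 0.228). In mice 9 to 16 alone they were 87.0 and 208 CPM (log2 1.27, adjusted p = 0.00175).

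Cxcr3 lies on the X chromosome, and the sexes were mixed in both genotypes: Xist exceeded the summed 4 Y-linked genes in 3 of 8 control and 4 of 8 transgenic mice. Among mice with more Y-linked UMIs, plasma cell Cxcr3 was between 48.3 and 107 CPM in control and between 153 and 371 CPM in transgenic mice. Among mice with more Xist, it was between 116 and 214 CPM in control and between 217 and 293 CPM in transgenic mice. In this split, made after seeing the data into groups of 3 to 5 mice, the genotypes did not overlap within either sex. Among mice with more Xist the nearest values were 214 and 217 CPM, where 1 UMI was worth 2.20 to 3.96 CPM. With sex as a covariate, also chosen after seeing the data, the genotype difference was log2 1.02 (edgeR adjusted p = 0.0148). In GC B cells the Y-linked mice had between 14.4 and 34.2 CPM in control and between 2.51 and 8.36 CPM in transgenic mice, whereas the Xist mice overlapped (2.40 to 11.7 and 1.48 to 13.3 CPM).

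**Figure D4:**
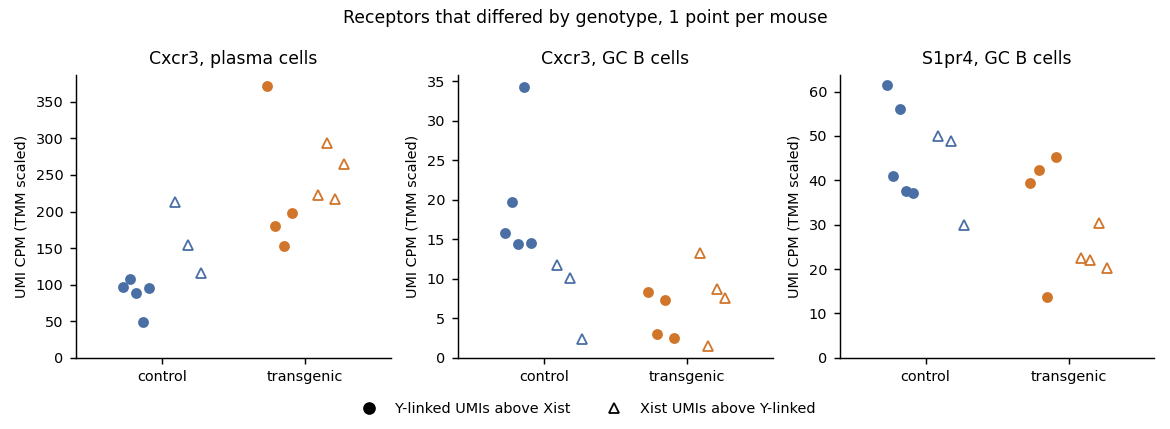
UMI counts as CPM (vertical axes, TMM scaled, from 0) of Cxcr3 in plasma cells, Cxcr3 in GC B cells and S1pr4 in GC B cells, 1 point per mouse, with circles for mice with more Y-linked and triangles for mice with more Xist UMIs. Within each symbol the transgenic plasma cells had more Cxcr3 than every control (153 to 371 above 48.3 to 107 CPM for circles, 217 to 293 above 116 to 214 CPM for triangles). Each symbol and genotype has 3 to 5 mice, and without the split by sex the genotypes overlapped.

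T cells and NK cells also express Cxcr3, and their summed markers were not higher in transgenic than in control plasma cells by median. The 12 T cell markers, all detected in control and 11 in transgenic plasma cells (Trac at 0), summed to between 250.1 and 364 CPM in control and between 158 and 329 CPM in transgenic libraries. Without Cd28, which plasma cells express, the T cell sums were between 128 and 189 CPM in control and between 38.1 and 147 CPM in transgenic libraries. Their medians were 165 and 57.2 CPM in control and transgenic plasma cells. In GC B cells the medians were 7.11 and 4.72 CPM, and in naive B cells 13.5 and 10.5 CPM. NK cell markers, with 6 of 8 detected in each genotype, summed to at most 35.6 CPM in control and 27.4 CPM in transgenic plasma cells, with medians of 20.3 and 19.4 CPM. GC B cell markers, with 8 of 8 detected, had medians of 116 and 204 CPM, and the cell cycle gene Mki67 among them had means of 39.8 and 84.6 CPM. The part of these markers in the rise of Cxcr3 with genotype, or in the plasma cell level of any member, was not tested. Tbx21, which encodes the T-box factor T-bet known to act on Cxcr3, had 6.57 ± 4.40 and 6.81 ± 3.16 CPM in plasma cells.

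The other 3 members tested in plasma cells did not pass: S1pr2 had 35.9 ± 10.6 and 37.3 ± 11.3 CPM (log2 interval -0.45 to 0.45), S1pr4 74.1 ± 20.4 and 73.9 ± 25.7 CPM (interval -0.40 to 0.35) and Cxcr4 165 ± 35.6 and 195 ± 59.4 CPM (interval -0.16 to 0.58). Below the filter were S1pr1 (22.8 ± 8.85 and 19.1 ± 8.25 CPM), Cxcr5 (14.2 ± 3.59 and 9.86 ± 5.12 CPM), Gpr183 (18.6 ± 5.46 and 12.6 ± 3.12 CPM), Ccr6 and Ccr7. None passed in the fit without a filter, where 2.19% of all genes did. Gpr183 had log2 -0.53 (edgeR adjusted p = 0.563, two-sided exact permutation p = 0.0162, unadjusted). Ccr7 had 10 UMIs in 5 control and 2 UMIs in 2 transgenic libraries (log2 -2.02, edgeR adjusted p = 0.265, two-sided exact permutation p = 0.0499, unadjusted). These are receptors with high naive B cell levels, and the 7 naive B cell markers without Ighm summed to between 292 and 465 CPM in control and between 128 and 245 CPM in transgenic plasma cells. The T cell markers without Cd28 were lower too, with medians of 165 and 57.2 CPM in control and transgenic plasma cells. The part of either group of markers in these values was not tested.

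**Figure D5:**
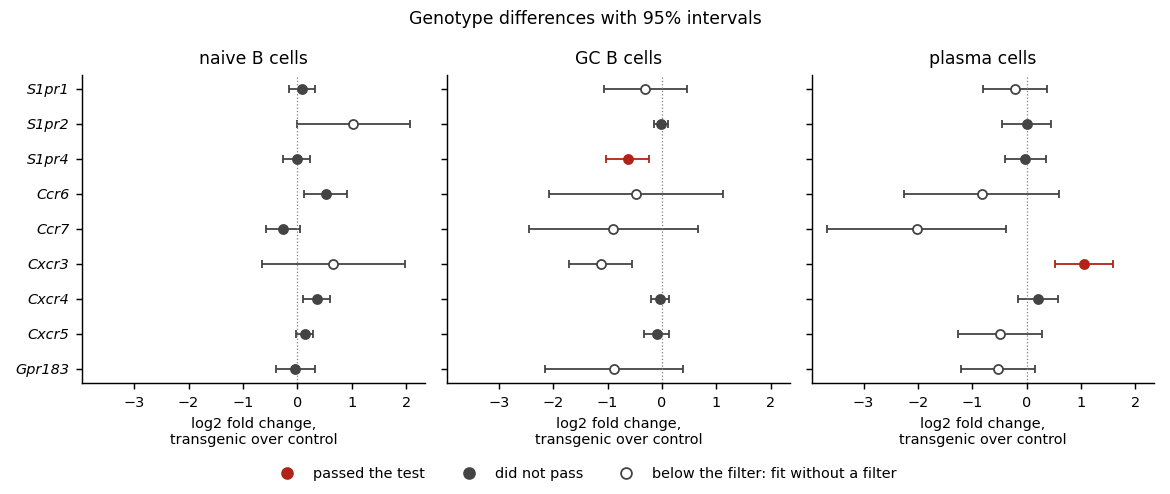
Log2 fold changes of transgenic over control mice (horizontal axes) with 95% intervals for the 9 receptors in naive B cells, GC B cells and plasma cells. Filled red symbols passed an adjusted p of 0.05 (S1pr4 in GC B cells, -0.63, and Cxcr3 in plasma cells, 1.06). Open symbols were below the filter and come from the fit without it, whether or not they passed there. Cxcr3 in GC B cells (-1.13), drawn open, passed in that fit (edgeR adjusted p = 0.00796).

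Whether the genotype effect differed between populations was tested in 1 fit of all 48 libraries. For plasma cells minus GC B cells Cxcr3 alone passed among the 9 members (difference of log2 effects 2.20, SE 0.50, edgeR adjusted p = 0.0105), where 1.58% of all genes did. Cxcr3 was below the filter within GC B cells (75 and 41 UMIs) and was tested here through its plasma cell counts (277 and 681 UMIs). Its genotype difference in GC B cells did not pass in this fit (edgeR adjusted p = 0.147). With all libraries thinned to 97993 UMIs, Cxcr3 was no longer among the genes tested. The difference for S1pr4 was 0.60 (SE 0.28, edgeR adjusted p = 0.374). For GC minus naive B cells 0 of 9 members passed (0.129% of all genes) and for plasma minus naive B cells 0 of 9 (1.16%). At an unadjusted p under 0.05 were S1pr2 (-1.07), S1pr4 (-0.63) and Cxcr4 (-0.39) in the first, and S1pr2 (-1.06) and Ccr7 (-1.86) in the second, and DESeq2 called no member in either.

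Genes around the receptors were taken from 8 lists. Their genotype counts stand beside 1.13%, 7.68% and 6.35% of all genes called in either direction in naive B cells, GC B cells and plasma cells. In G protein signaling, 6 of 13 tested genes fell in transgenic GC B cells and none rose, where 262 of all 6393 genes tested fell and 229 rose. They included Gnai2, the G alpha i subunit that most chemokine receptors use (log2 -0.29, edgeR adjusted p = 0.00359), Gpsm3, a G protein regulator (-0.35, adjusted p = 0.0144), Gnas, the G alpha s subunit (-0.43, adjusted p = 0.0175), and Gnb1, a beta subunit (-0.27, adjusted p = 0.0203). The list's median was -0.29, beside -0.0023 over all genes tested. In plasma cells 1 of 13 rose, Pik3r5, a regulatory subunit of the G beta gamma-driven PI3 kinase (log2 1.21, edgeR adjusted p = 6.05e-06). Gna13, through which S1PR2 signals, was higher in GC than in naive B cells (log2 1.41, edgeR adjusted p = 6.81e-14) and had 185 ± 23.4 and 185 ± 14 CPM in control and transgenic GC B cells.

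Of 9 tested desensitization genes, Rgs10 and Rgs14, which speed the switching off of G alpha i, fell in transgenic GC B cells (log2 -0.86, edgeR adjusted p = 2.22e-09, and -0.63, adjusted p = 0.0119). In GC B cells 7.68% of all genes were called. In plasma cells, where 6 were tested and 6.35% of all genes called, Rgs10 fell (-0.57, adjusted p = 2.02e-04) and Rgs14 rose (0.47, adjusted p = 0.0484). The GC regulator Rgs13 had 226 ± 38.7 CPM in control GC B cells and stood above naive B cells by log2 4.65 (edgeR adjusted p = 1.57e-27). Of 26 migration genes, 6 fell in GC B cells and none rose (7.68% of all genes called in either direction), among them Rac2, a leukocyte GTPase of the Rac family (log2 -0.36, edgeR adjusted p = 7.32e-05), and Coro1a, an actin-binding protein (-0.21, adjusted p = 0.0174). In plasma cells (6.35% of all genes called) 1 of 26 rose, Vav1, a Rac activator (0.50, adjusted p = 0.0122), and 2 fell, Rapgef1, a Rap1 activator (-0.72, adjusted p = 3.83e-04), and Myl12a, a myosin light chain (-0.35, adjusted p = 0.00853). In naive B cells (1.13% called) 1 of 24 fell, Ezr, the cytoskeletal linker ezrin (-0.43, adjusted p = 0.00125).

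Of 9 adhesion molecules tested, 6 rose and 1 fell from naive B cells to plasma cells in control mice, where 27.1% and 25.4% of all genes did. Those that rose included Cd44, the hyaluronan receptor (log2 3.15, edgeR adjusted p = 9.49e-34), and Selplg, the selectin ligand PSGL-1 (2.70, adjusted p = 8.70e-29). With genotype, 2 of 8 rose and 1 fell in plasma cells, where 6.35% of all genes were called. The 2 that rose were Cd44 (0.38, edgeR adjusted p = 0.00440) and Itga4, the alpha chain of VLA-4 (0.38, adjusted p = 0.0484). For the differences of genotype effects, 1 of 9 was lower in plasma minus GC B cells and 1 of 9 in plasma minus naive B cells (1.58% and 1.16% of all genes called). In GC B cells 1 of 5 rose (7.68% called), Icam1, the ligand of LFA-1 (0.28, adjusted p = 0.0391).

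Of 32 other chemokine and chemoattractant receptors 23 were in the table and few were expressed. Ccr10, which responds to mucosal chemokines, was a plasma cell gene with 111 ± 54.2 and 168 ± 96.7 CPM in control and transgenic plasma cells and at most 4 UMIs in any other group. Ackr4, a scavenger of CCR7 ligands, was a GC B cell gene with 44.8 ± 5.91 and 43.9 ± 9.89 CPM and at most 1 UMI in any other group. With genotype, 0 of 3 tested passed in naive B cells, 0 of 2 in GC B cells and 2 of 3 fell in plasma cells, where 1.13%, 7.68% and 6.35% of all genes were called. These were P2ry10, a lysophospholipid receptor (log2 -1.33, edgeR adjusted p = 1.04e-04; 44.3 ± 11.8 to 17.9 ± 4.99 CPM), and Gpr18 (-1.08, adjusted p = 4.77e-05; 88.6 ± 17.2 to 42.4 ± 16.4 CPM). Among S1P enzymes and transporters 4 of 10 listed genes were tested and none passed for genotype, with 0 of 2 in naive B cells. In control mice all 4 fell from naive to GC B cells (24.7% of all genes did), among them the S1P lyase gene Sgpl1 (log2 -0.98, edgeR adjusted p = 2.79e-06) and the ceramide synthase gene Cers2 (-0.81, adjusted p = 9.00e-08). Of 16 ligand genes 9 were in the table and none passed the filter.

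Among 17 transcription factors tested, Klf2, which activates S1pr1, fell furthest from naive to GC B cells of control mice (log2 -6.01, edgeR adjusted p = 9.60e-44). Klf2 and Foxp1 are also among the naive B cell markers summed above. The level of Klf2 was 339 ± 61.5 CPM in naive B cells, 4.83 ± 2.77 in GC B cells and 39.1 ± 18.6 in plasma cells. In all 11 fell and 3 rose, where 24.7% and 26.6% of all genes did; those that rose included Bcl6, the GC repressor of Gpr183 and S1pr1 (1.42, adjusted p = 6.66e-11). With genotype, 4 of 16 fell and 1 rose in GC B cells, where 7.68% of all genes were called. Those that fell were Bcl6 (-0.48, edgeR adjusted p = 7.80e-04), Foxo1, a dark zone factor (-0.45, adjusted p = 0.00261), Relb (-0.46, adjusted p = 0.0212) and Foxp1 (-1.04, adjusted p = 0.0276). The gene that rose was Rel, as given above. In plasma cells 3 of 12 fell and 1 rose, where 6.35% of all genes were called. Those that fell were Foxp1 (-1.12, adjusted p = 1.26e-05), Nfkb2 (-1.17, adjusted p = 1.96e-04) and Relb (-1.46, adjusted p = 2.27e-04). E2f2, a regulator of cell cycle entry, rose there (1.08, adjusted p = 3.89e-06).

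The genes whose log2 CPM ran most like each member over the 48 libraries, among 6975 genes, mostly followed the 3 populations, which the libraries share. Among the 3 genes closest to S1pr1 were Arhgef18 and Gpr183 (Pearson r 0.97 and 0.96). Among the 3 closest to Gpr183 were S1pr1 and Cd55 (0.96 each), so that these members were among each other's nearest genes. S1pr4 was closest to Tspan32, S1pr1 and Cd55 (0.94, 0.94 and 0.93), Ccr6 to Cnn3, Ccr7 and Serpinb1a (0.96 each), and Ccr7 to Fam43a, Plaur and Snn (0.97 each). S1pr2 was closest to H2afz, Hmces and Hmgb2 (0.95 each), and Cxcr5 to H2-DMa, Ablim1 and Bcl11a (0.99, 0.99 and 0.98). Cxcr3 was closest to Gpr160, Cd44 and Man1b1 (0.93, 0.92 and 0.92). Cxcr4, with the flattest profile, had the lowest values (Kif21b 0.74, Pltp 0.74 and Cnn3 0.71).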

How the data were processed

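Bulk SCRB-seq, which tags messenger RNA near its 3′ end with UMIs, was run on 48 libraries of 1000 sorted cells, per the labels' protocols. STAR and GRCm38.p5 are named in the submitters' processing notes. The authors deposited UMI counts by gene for all libraries in a single table. For the STAR version, annotation and UMI collapsing, nothing is given in the sources used here. Counts were used as deposited and not divided by gene length. Ensembl identifiers were matched to GENCODE M21 (GRCm38); 306 of 20007 genes, with 0.424% of the UMIs, had no symbol and were kept in the totals. The members and gene lists were chosen with earlier results of these data known.

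edgeR 4.0.16 in R 4.3.3 was used (quasi-likelihood fit, robust, TMM, filterByExpr with a minimum count of 10, Benjamini-Hochberg over all genes tested, threshold 0.05). Genotypes were compared within a population, populations within a genotype, and differences of genotype effects over all 48 libraries. Members below the filter were taken from a fit without a filter and, with at least 10 UMIs, from a two-sided exact permutation test over all 12870 splits of the mice. Intervals on summed UMIs cover counting error only. Replicates were separate mice; no 2 libraries of a group agreed within sampling noise (chi-square per degree of freedom at least 1.07). Populations were paired by mouse through the labels. Same-mouse deviations correlated weakly (median r 0.0665, 0.0563 and 0.117 for naive with GC, naive with plasma and GC with plasma cells). Named genes were all 9 members, Rel, up to 4 genes per list, direction and comparison with the smallest adjusted p, and the 3 genes most like each member (mean of at least 10 CPM, prior count 2); Gna13, Rgs13, Ccr10, Ackr4, Tbx21 and Mki67 levels were added after seeing the data. Some genes these rules would name are not reported here. Alternatives were DESeq2 1.42.0, no filter, no immunoglobulin genes, all libraries in 1 fit, blocks of mice, thinning, leaving out each mouse and, chosen after seeing the data, plain totals and sex as a covariate. The fits were tested on simulated data.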

Additional observations from a re-analysis of the deposited data

Results flagged for a closer look

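Genotype effects on Cxcr3 differed between plasma cells and GC B cells by 2.20 on the log2 scale (SE 0.50, edgeR adjusted p = 0.0105). The GC B cell side of this difference was below the filter within that population (75 and 41 UMIs). Within groups of 8 mice, 1 library stood far from the others in 3 of 54 groups of member and population. The rule is meant to flag about 1 of 20 groups by chance, and whether that rate holds for counts this low was not tested. Control mouse 11 had 4.85 CPM of Ccr6 in GC B cells (3 UMIs, the next mouse 1.67 CPM). Control mouse 3 had 257 CPM of Ccr7 in naive B cells (36 UMIs, the next mouse 177 CPM). Control mouse 4 had 223 CPM of Gpr183 in naive B cells (35 UMIs, the next mouse 143 CPM), and without it the genotype difference of Gpr183 in naive B cells was log2 0.14 in place of -0.04, neither passing the test.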

How the results depend on the processing

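Of 473 values of single members under settings other than leaving out a mouse, 434 kept direction and side of the threshold, 15 lost their call, 4 gained one and 20 changed sign; the causes were not tested. A member that was not tested under a setting is not in these counts, so calls lost in that way are missing from them. With thinning, members called went from 9 to 7 for plasma against naive B cells in each genotype. For plasma against GC B cells of control mice they went from 7 to 3. With the mouse as a replicate block, only Cxcr4 in plasma against GC B cells of transgenic mice changed its call (0.23, edgeR adjusted p = 0.0472). That difference also passed after thinning (0.43, adjusted p = 0.0489) and without immunoglobulin genes (0.27, adjusted p = 0.0384).

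For genotype, 24 genes passed in naive B cells, 491 in GC B cells and 288 in plasma cells. In naive B cells this was 0 with all 48 libraries in 1 fit, 11 with DESeq2 (81.8% of calls higher, against 54.2%), 11 in mice 1 to 8 and 2 in mice 9 to 16. In those runs of mouse numbers it was 55 and 198 in GC B cells, and 71 and 106 in plasma cells. Members called in GC B cells were 0 in 1 fit of all libraries, with DESeq2 and in each run of mouse numbers, and 2 without a filter; in plasma cells 0 were called in mice 1 to 8. Thinning to the smallest total left 1382, 1371 and 1358 genes for GC against naive, plasma against naive and plasma against GC in control mice (3338, 3416 and 4277 otherwise), and 1531, 1489 and 1497 in transgenic mice (3791, 3851 and 4825), with 3 members for plasma against GC in control mice. Plain totals gave 5540 genes for plasma against naive in control mice, and no filter gave 7022 and 7330 for plasma against GC. For differences of genotype effects, GC minus naive had 10 genes, 32 with DESeq2 and 16 without a filter; plasma minus naive had 90, and 24 thinned; plasma minus GC had 122, and 9 genes and 0 members thinned.

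Sign changes of genotype effects were all in members that did not pass. For S1pr4 in naive B cells the log2 value was 0.0127 in 1 fit, 0.0112 with DESeq2, 0.266 in mice 9 to 16 and 0.00428 without a filter. In GC B cells Cxcr4 was 0.0871 in mice 1 to 8, and S1pr2 was 0.00235 in 1 fit, 0.0354 in mice 1 to 8 and 0.0124 without a filter. In plasma cells of mice 9 to 16 Cxcr4 was -0.125 and S1pr2 -0.251, and S1pr4 was 0.00828 without a filter and 0.0141 with sex. Thinned, S1pr4 in plasma minus naive was 0.380. For plasma against GC, plain totals gave -1.42 (control) and -1.09 (transgenic) for Cxcr4, -0.677 for S1pr4 in control and -0.828 for Ccr7 in transgenic mice. Cxcr4 in control mice was -0.0737 without a filter and -0.0921 thinned. S1pr2 in plasma against naive of transgenic mice was -0.388 with plain totals.

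Leaving out 1 mouse (96 fits), genes called ranged from 13 to 31, 340 to 747 and 212 to 320 for genotype in naive B, GC B and plasma cells. Members called ranged from 0 to 1 for genotype in GC B cells, 6 to 8 and 6 to 7 for plasma against GC in control and transgenic mice, and 8 to 9 for plasma against naive in transgenic mice. Ranges that crossed 0 were -0.122 to 0.142 (Gpr183, genotype in naive), -0.0992 to 0.0448 (S1pr4, naive), -0.0748 to 0.0179 (Cxcr4, GC), -0.0590 to 0.0154 (S1pr2, GC), -0.0935 to 0.135 (S1pr2, plasma), -0.186 to 0.0643 (S1pr4, plasma), -0.0138 to 0.104 (Cxcr4, plasma against GC, control), -0.985 to 0.0382 (Cxcr3, GC against naive, transgenic) and -0.578 to 0.707 (Ccr7, plasma against GC, transgenic). Depth limits Ccr6, Ccr7 and Gpr183 in GC B cells, Ccr6 and Ccr7 in plasma cells, S1pr2 and Cxcr3 in naive B cells and Rel in plasma cells, where a group held at most 26 UMIs.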
